A study of Mus musculus with 14 samples.

Results

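The genes described are 8 components of signalling by leukaemia inhibitory factor (LIF) and interleukin 6: the receptor genes Lifr, Il6st, Il6ra, Osmr and Il11ra1, the kinase gene Jak1, the transcription factor gene Stat3 and the inhibitor gene Socs3. They were chosen by name, and each was followed through all probe sets annotated to it alone. Of the 8 genes, 7 were among the 12393 genes with such a probe set. They had 19 probe sets, of which 15 were bright enough to be tested, at least 1 from each of the 7 genes. The annotation table used lists no probe set for Il11ra1 alone, and no value is given for it. The genes were proposed with results of these arrays in view, so the tests below describe these arrays and are not independent evidence for the choice.

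Thymus RNA was hybridised to 14 Affymetrix oligonucleotide arrays that formed 7 groups of 2. All mice were female C57BL/6, an inbred strain, ovariectomised at 26 days of age and then fed the phytoestrogen-free diet AIN-93G, so every group, the control included, lacked its ovaries. Control mice were taken untreated at day 0 of the experiment, at 30 days of age. Estradiol mice were injected under the skin each day with 125 ng of estradiol, an ovarian estrogen, dissolved in 0.02 ml of corn oil, and were taken on days 2, 3 and 6. Genistein mice ate feed containing 1500 ppm of genistein, an isoflavone of soy with affinity for estrogen receptors, and were taken on the same days. Each array held RNA pooled from 3 of the 6 mice of a group. The labels call both pools of a group independent biological replicates, and precision is limited by having 2 pools in a group. No untreated arrays later than day 0 were analysed here, so an effect of treatment and an effect of time cannot be told apart in comparisons with control. Oil injections are described for the estradiol mice only, so hormone and injection cannot be told apart either.

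The arrays read as thymus. The summed signal of 9 markers of double-positive thymocytes, the main cell of the thymic cortex, lay between 10645 and 13505 on every array. Signals were brought to 1 scale before use, because 3 estradiol arrays (day 2 replicate 2 and day 3 replicates 1 and 2) had been deposited at 1.49 to 2.23 times the scale of the other 11. Across probe sets the array least like the rest was control replicate 2 (mean r = 0.942). Gapdh control probes gave a 3' to 5' ratio, a measure of RNA integrity, of 1.503 on the first array of genistein day 6, 1.27 on the first of estradiol day 2 and 0.867 to 1.1045 on the rest.

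Receptors of this family share the signalling subunit gp130, the product of Il6st. It pairs with a partner that differs by ligand: the LIF receptor for LIF, the oncostatin M receptor for oncostatin M, and the alpha receptors of interleukin 6 and interleukin 11 for those cytokines. The bound receptors activate Janus kinases such as Jak1, which phosphorylate Stat3. Stat3 enters the nucleus and switches on target genes, among them Socs3, whose product binds gp130 and the kinases and damps the signal. In the thymus, LIF and related cytokines are made in part by epithelial and other stromal cells and are known for their link to thymic involution.

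Stretches of 2 member promoters are shown because they hold the only matches found there to the DNA motifs of the factors this experiment bears on. The windows ran from 250 bases before to 50 bases after each annotated start, from RefSeq on build GRCm38.p6. They covered all 8 genes, with 10 windows. The capitals mark the match, and each stretch reads 5′ to 3′ on the gene's strand. The Lifr stretch, at chr15:7129322-7129370 on the plus strand, holds the estrogen response half-site AGGTCA on the opposite strand, starting 247 bases before the start of transcription. The Socs3 stretch, at chr11:117969472-117969560 on the minus strand, holds the STAT motif TTCNNNGAA, starting 154 bases before it. The window at the other annotated start of Lifr holds none of the motifs searched.
Lifr: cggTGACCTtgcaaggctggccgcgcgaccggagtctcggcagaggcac
Socs3: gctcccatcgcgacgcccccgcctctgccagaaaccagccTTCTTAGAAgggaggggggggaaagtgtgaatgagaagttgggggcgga
On both strands, the STAT motif was found in 8.3% and AGGTCA in 16.3% of 32851 windows of the same length over all genes, against 1 of 10 member windows each. The full estrogen response element, searched as GGTCA and TGACC with 3 bases of any kind between them, was found in 0.07% of all windows. The glucocorticoid response element, searched as GNACA and TGTNC with the same gap, was found in 0.475%. Neither was in any of the 10 member windows. A full estrogen response element flanked by A also contains AGGTCA, so the motifs can overlap. These matches describe letters in a window and show no binding.

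Lifr, the receptor gene of LIF, was higher on the estradiol arrays than on the control arrays and most genistein arrays, and had the largest called difference among the members tested. Its brightest probe set, 1454984_at, gave signals of 308.8 and 326.0 on the control arrays. Under estradiol it gave 681.1 and 684.0 on day 2, 657.2 and 480.0 on day 3, and 794.4 and 817.1 on day 6. Under genistein it gave 150.7 and 257.6 on day 2, 591.5 and 340.6 on day 3, and 248.4 and 325.4 on day 6. All 6 estradiol arrays lay above both control arrays, a gap for which no share over all tested probe sets is given. Of the 6 estradiol arrays, 5 lay above every genistein array, and the exception was day 3 replicate 2, which lay below genistein day 3 replicate 1. In RNA of a whole organ, fewer cells of a type and less RNA per cell cannot be told apart.

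**Figure D1:**
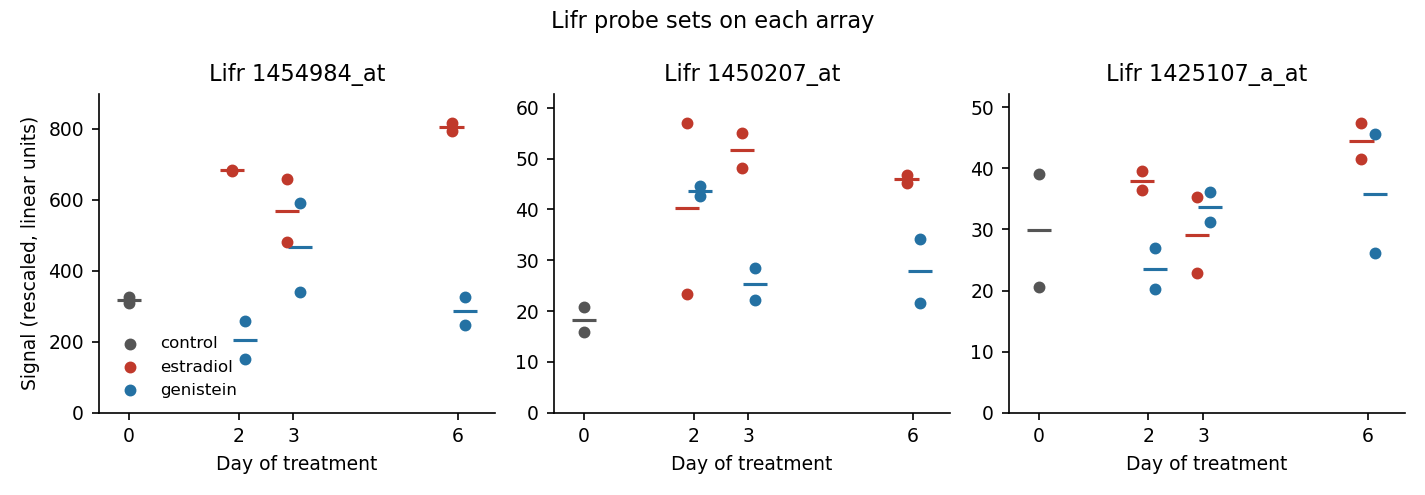
Signal of the 3 Lifr probe sets (linear units after rescaling, y axis from 0) against day of treatment, with a point for each array and a bar at the mean of the 2 arrays of a group. On 1454984_at the estradiol arrays sit between 480.0 and 817.1 and the genistein arrays between 150.7 and 591.5; the other probe sets stay at or below 57.1 and were too dim to be tested.

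Differences were tested with limma over all 13575 probe sets that were bright enough, on log2(signal + 16), which understates the change of dim probe sets. A probe set was called at a Benjamini-Hochberg adjusted p under 0.05. Over the mean of days Lifr was 2.23-fold higher under estradiol than under genistein (log2 difference 1.16 ± 0.149 (SE, 6 against 6 arrays), limma adjusted p = 0.00177). Against control it was 2.08-fold higher under estradiol (1.05 ± 0.211, limma adjusted p = 0.0426). Under genistein the difference from control was -0.10 ± 0.211 (limma adjusted p = 0.885, 95% interval -0.56 to 0.35), and its sign turned, to 0.02, without genistein day 2 replicate 1 or day 3 replicate 2. The arrays at the common deposited scale alone gave 1.29 for estradiol against genistein. That fit had no estradiol day 3 arrays and 1 of estradiol day 2, so it is not the same comparison. It set estradiol days 2 and 6 against genistein days 2, 3 and 6. The scale as a block gave 1.15 (limma adjusted p = 0.0822), which ends that call. Only estradiol day 2 had arrays at both scales, so the block rests on its 2 arrays. The call against control was lost without any 1 of the 2 control or 6 estradiol arrays, at differences of 0.98 to 1.13 and limma adjusted p of 0.0565 to 0.326, the highest without control replicate 2. It also ended with the scale as a block (limma adjusted p = 0.201), without the 3 arrays at another scale (0.0981), with the replicate block (0.0648) and in 3 further alternatives (0.0607 to 0.0808).

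Mean Lifr was higher under estradiol than under genistein on each day, with unequal gaps. On day 2 it was 3.27-fold higher under estradiol than under genistein (log2 1.71 ± 0.258, 2 against 2 arrays, limma adjusted p = 0.0283). On day 6 it was 2.73-fold higher (1.45 ± 0.258, limma adjusted p = 0.0436). On day 3, when the arrays of the treatments overlapped, the difference was 0.31 ± 0.258 (limma adjusted p = 0.870, 95% interval -0.24 to 0.87). Against control, the estradiol difference was called on day 6 (1.30 ± 0.258, limma adjusted p = 0.0388). It was 1.07 on day 2 and 0.79 on day 3, at limma adjusted p of 0.170 and 0.332. The genistein differences from control were -0.64, 0.48 and -0.15 on days 2, 3 and 6, none of them called, and the lowest limma adjusted p was 0.386.

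Both genistein arrays of day 2 thus lay below both control arrays and both of day 3 above them. Gaps between 2 and 2 arrays are common. With estradiol above genistein they were seen in 15.4%, 22.8% and 24.9% of all tested probe sets on days 2, 3 and 6. No such share is given for genistein against control. In limma's F tests neither the change of Lifr over the days of genistein (limma adjusted p = 0.612) nor the interaction of treatment and day (adjusted p = 1.00) nor the change over the days of estradiol (adjusted p = 0.851) was called. No member passed these tests, where 0%, 0% and 0.0221% of all tested probe sets did, so the differences between days are given as values alone. On day 6 against control the call was lost without either control array or any of the 4 estradiol arrays of days 3 and 6 (1.26 to 1.34, limma adjusted p from 0.0535 to 0.325). Against genistein on day 2 it was lost without any of the 4 estradiol arrays of days 2 and 6 or genistein day 2 replicate 1 (1.35 to 1.71, limma adjusted p from 0.0592 to 0.241). Against genistein on day 6 it was lost without any of the 6 estradiol arrays or genistein day 6 replicate 1 (1.27 to 1.47, limma adjusted p from 0.0540 to 0.334). With the Gapdh ratio as a covariate the differences from genistein were 1.73 on day 2 and 1.41 on day 6, and neither was called (limma adjusted p = 0.0731 and 0.190). The array with the highest ratio, 1.503, is one of genistein day 6. Both calls also ended with the deposited scale as a block (limma adjusted p = 0.0748 and 0.0536) and without the 3 arrays at another scale (0.114 and 0.0937), and the replicate block ended those of day 6 against genistein (0.0653) and against control (0.0594).

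In order of mean Lifr signal the groups ran from estradiol day 6 (806 ± 16.1, SD, n = 2) through estradiol day 2 (683 ± 2.03), estradiol day 3 (569 ± 125) and genistein day 3 (466 ± 177) to control (317 ± 12.2), genistein day 6 (287 ± 54.5) and genistein day 2 (204 ± 75.6). Among neighbours in that order, only estradiol days 6 and 2 had arrays that did not overlap and differed by more than the larger SD. The remaining 2 Lifr probe sets were too dim to be tested. Their signals ran from 20.2 to 47.5 on 1425107_a_at and from 15.9 to 57.1 on 1450207_at. The first correlated with the bright probe set at r = 0.60 and the second at r = 0.26 over the 14 arrays, and at these signals little order between arrays can be read.

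Osmr codes for the oncostatin M receptor, the partner of gp130 that binds oncostatin M, and is the protein-coding neighbour of Lifr on chromosome 15, with 3 other annotated genes and 0 protein-coding genes between them. Its brightest probe set, 1418674_at, gave 78.7 and 112.8 on the control arrays. Under estradiol it gave 130.8 and 134.7 on day 2, 103.9 and 113.3 on day 3, and 142.9 and 166.3 on day 6. Under genistein it gave 82.6 and 76.1, then 95.8 and 88.5, then 109.3 and 105.1 on the same days. Of the 6 estradiol arrays, 5 lay above every genistein array, and day 3 replicate 1 lay within their range.

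Osmr was 1.35-fold higher under estradiol than under genistein over the mean of days (log2 0.44 ± 0.0995, limma adjusted p = 0.0478). Against control the difference was 0.41 ± 0.141 under estradiol (limma adjusted p = 0.194) and -0.03 ± 0.141 under genistein (0.957), neither called. The 1418675_at probe set, with signals from 49.7 to 80.3, gave 0.14 ± 0.127 for estradiol against genistein (limma adjusted p = 0.616) and was not called. The call of 1418674_at was lost without any 1 of the 12 treated arrays (0.40 to 0.47, limma adjusted p from 0.0597 to 0.186) and was kept without either control array. It also ended with the deposited scale as a block (limma adjusted p = 0.298), without the 3 arrays deposited at another scale, all of them estradiol arrays (0.161), with the Gapdh covariate (0.0797), with the replicate block (0.0619) and in 4 further alternatives (0.0513 to 0.0834). The fit without those 3 arrays had no estradiol day 3 arrays. The estradiol difference from control was 0.19 without control replicate 1 and 0.63 without control replicate 2, and that of genistein was -0.25 and 0.19. Over the 14 arrays Osmr and Lifr correlated at r = 0.76, where the points share treatment group and array.

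Summed markers of thymic epithelium, macrophages, adipocytes and fibroblasts were higher on all estradiol arrays than on the control arrays, as Lifr was. So were those of endothelium, by a small margin, and of glucocorticoid-responsive genes. The epithelial and glucocorticoid-responsive sums also lay above both control arrays on every genistein array, unlike Lifr. The summed signal of 14 thymic epithelial markers was 7538 to 8056 on the control arrays, 9492 to 11535 under estradiol and 8854 to 9793 under genistein. Of the 13 tested, 4 were called higher under estradiol than in control over the mean of days (Ccl25, Prss16, Trp63 and Pax1). Against genistein 2 were called higher (Trp63 and Pax1). Over all tested probe sets 0.53% and 1.11% were called higher in these comparisons. The sum of 12 macrophage markers was 3081 to 3334 in control, 4150 to 4573 under estradiol and 3135 to 4064 under genistein, and 4 of the 11 tested were called higher under estradiol in each comparison. For 8 adipocyte markers it was 1302 to 1318, 1868 to 3245 and 996 to 1898, with 2 and 3 of 5 called higher. Of these, Pparg, Lep and Cidec had at most 12.1, 16.2 and 35.5 on any array and were not tested. Adipoq, Fabp4, Lpl, Retn and Scd1 were tested.

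The sum of 9 fibroblast markers was 1119 to 1255 in control, 1496 to 1832 under estradiol and 1087 to 1322 under genistein. Of 6 tested, 0 were called against control and 1, Dcn, against genistein, where 0.53% and 1.11% of all tested probe sets were called higher. Endothelial markers (10 genes) summed to 662 to 673, 677 to 808 and 630 to 768, with 0 of 7 called in either comparison. Tie1 had at most 8.4 and, like Tek and Cldn5, was too dim to be tested. Pecam1, Cdh5, Kdr, Emcn, Plvap, Esam and Eng were tested. Mature T cell markers (10 genes) summed to 2213 to 2266, 2190 to 2652 and 1913 to 2739, with 0 of 10 called. Of 9 tested double-positive thymocyte markers 0 were called against control and 1, Cd8b1, was lower under estradiol than under genistein. The sum of 13 glucocorticoid-responsive genes was 5384 to 5739 in control, 6530 to 7455 under estradiol and 6647 to 7781 under genistein. Of the 11 tested, Tsc22d3 was called higher than in control under both treatments. Mt2 was called higher under estradiol than in control and than under genistein. In genistein against control 0.0368% of all tested probe sets were called in either direction. Over the 14 arrays Lifr correlated with the sums at r = 0.81 for macrophages, 0.67 for epithelium, 0.63 for fibroblasts, 0.63 for adipocytes, 0.43 for endothelium, 0.39 for mature T cells, 0.20 for glucocorticoid-responsive genes and -0.46 for double-positive thymocytes. The part of these cell types in the Lifr and Osmr results was not tested.

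**Figure D2:**
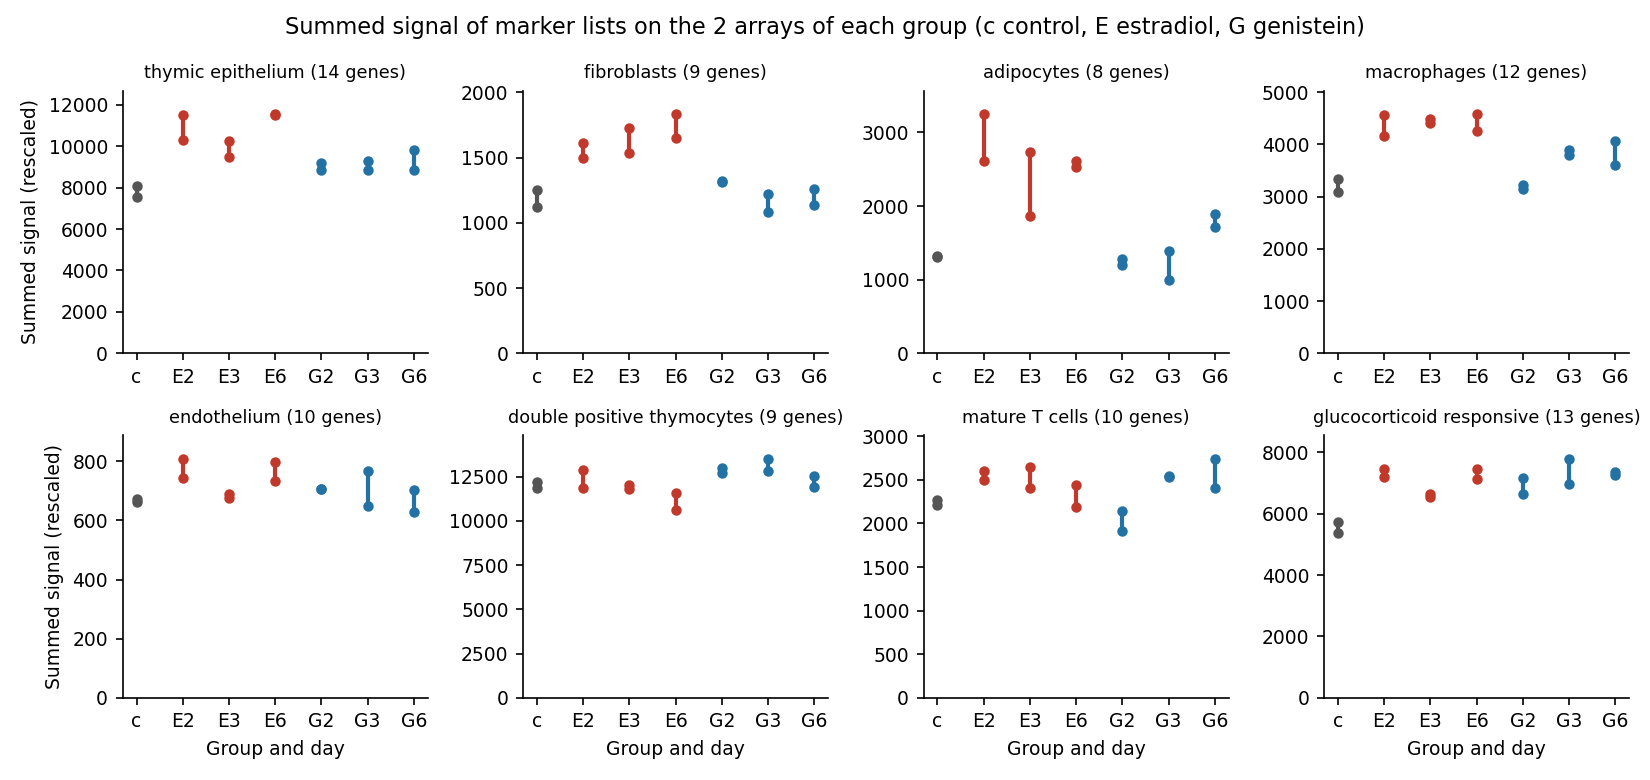
Summed signal of 8 marker lists (y axis, linear units after rescaling, from 0) by group and day on the x axis, with a point for each of the 2 arrays and a line between them. Macrophage sums lie between 4150 and 4573 on the estradiol arrays and between 3081 and 3334 on the control arrays, and double-positive thymocyte sums lie between 10645 and 13505 on all arrays.

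Il6st, the gene of the shared subunit gp130, gave no called difference. Its brightest probe set, 1452843_at, gave 259.7 and 205.0 on the control arrays, 280.3 to 316.5 on the 6 estradiol arrays (median 298) and 236.1 to 326.9 on the 6 genistein arrays (median 288). The estradiol arrays lay above both control arrays, while the genistein range took in the higher control. How many of all tested probe sets show such a gap from control is not given, so it is a description alone. The differences from control were 0.34 ± 0.130 under estradiol (limma adjusted p = 0.234) and 0.28 ± 0.130 under genistein (0.448). They were 0.18 and 0.12 without control replicate 2, the array least like the rest, on which this probe set was lowest, and 0.50 and 0.44 without control replicate 1. Estradiol against genistein gave 0.06 ± 0.0916 (limma adjusted p = 0.776), with a 95% interval of -0.13 to 0.26. The 1460295_s_at probe set ran from 32.9 to 117.9. For estradiol against genistein it gave -0.41 ± 0.299 on day 2 (limma adjusted p = 0.898) and 0.66 ± 0.299 on day 6 (0.361). On day 6 both estradiol arrays lay above both genistein arrays, at 32.9 and 92.9, a gap seen in 24.9% of all tested probe sets. The genistein array at 32.9 is the array with the highest Gapdh ratio. The third, 1421239_at, was left untested by a narrow margin, at a mean log2 value of 5.91 against 5.92 for the dimmest probe set tested.

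Il6ra, the alpha receptor gene of interleukin 6, was lower on average under estradiol than under genistein, a difference that was not called. Its bright probe set, 1422270_a_at, gave 84.3 and 39.7 on the control arrays. It gave 99.1 and 106.2, 75.0 and 80.5, and 61.2 and 66.7 on days 2, 3 and 6 of estradiol. It gave 153.5 and 109.7, 93.8 and 67.5, and 96.7 and 131.3 on the same days of genistein. The estradiol arrays were highest on day 2 and lowest on day 6. Over the mean of days Il6ra was 0.70 ± 0.211 above control under genistein (limma adjusted p = 0.331) and 0.36 ± 0.211 under estradiol (0.449). Estradiol against genistein gave -0.34 ± 0.149 (limma adjusted p = 0.262). None was called with all arrays. The control arrays were far apart. Without control replicate 1, which leaves 1 control array, the genistein difference was 1.13. Without control replicate 2 the genistein difference was 0.28 and the estradiol difference turned to -0.06. The dim probe set 1452416_at ran from 2.6 to 30.7 and was not tested.

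**Figure D3:**
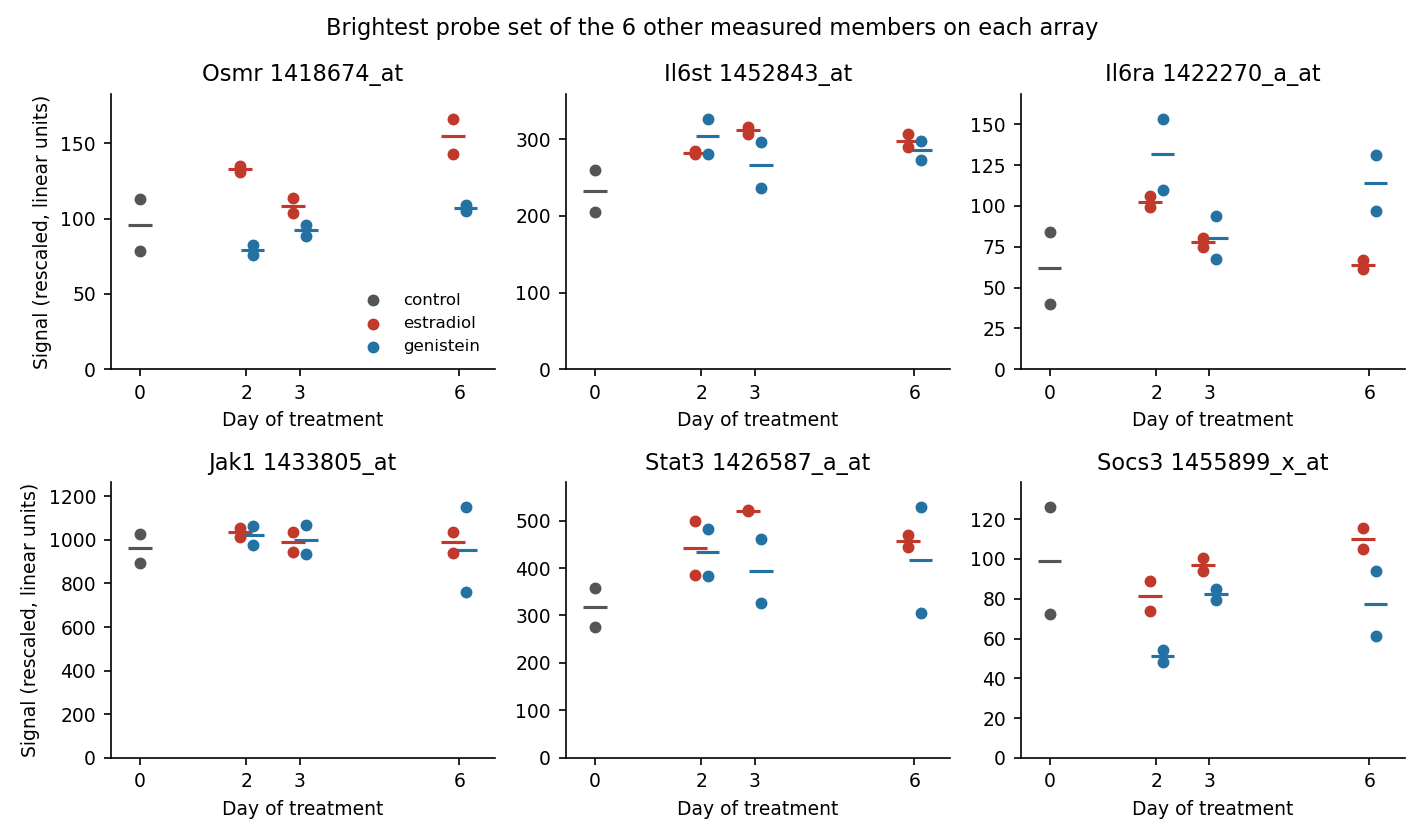
Signal of the brightest probe set of Osmr, Il6st, Il6ra, Jak1, Stat3 and Socs3 (linear units after rescaling, y axes from 0) against day of treatment, with a point for each array and a bar at the mean of the 2 arrays of a group. Osmr reaches 166.3 on estradiol day 6, Il6ra reaches 153.5 on genistein day 2, and Jak1 stays between 760.5 and 1150.1 on every array.

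Jak1, the kinase gene that serves every receptor of the family, was nearly level. Its brightest probe set, 1433805_at, gave 894.8 and 1027.2 on the control arrays, 938.9 to 1056.3 on the estradiol arrays (median 1024) and 760.5 to 1150.1 on the genistein arrays (median 1021). The extremes were the 2 arrays of genistein day 6, of which the lower is the array with the highest Gapdh ratio. Over the mean of days the differences were 0.06 ± 0.139 for estradiol against control, 0.04 ± 0.139 for genistein against control and 0.03 ± 0.0979 for estradiol against genistein, whose 95% interval ran from -0.18 to 0.24. Without control replicate 1 the differences from control were -0.03 and -0.06, without genistein day 6 replicate 2 that of genistein was -0.06, and without genistein day 6 replicate 1 estradiol against genistein gave -0.07, so the data set no direction for Jak1. The dimmer 1433804_at gave 0.33 ± 0.128 for estradiol against genistein (limma adjusted p = 0.204), with its lowest signal, 28.2, on that same genistein day 6 array.

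Stat3, the transcription factor that the kinases activate, was higher on most treated arrays than on the control arrays, but no difference was called. The probe set 1426587_a_at gave 357.3 and 276.6 on the control arrays. It gave 499.3 and 384.6, 521.7 and 520.8, and 444.7 and 470.0 on days 2, 3 and 6 of estradiol. It gave 483.2 and 384.1, 325.6 and 462.0, and 304.4 and 528.5 on those days of genistein. All 6 estradiol arrays lay above both control arrays, while the genistein arrays of days 3 and 6 lay on either side of the higher control. No share over all tested probe sets is given for such a gap from control, so it is a description alone. The differences from control were 0.56 ± 0.196 under estradiol (limma adjusted p = 0.201) and 0.35 ± 0.196 under genistein (0.515). They were 0.38 and 0.18 without control replicate 2, on which all 3 Stat3 probe sets were lowest, and 0.74 and 0.53 without control replicate 1. The 1460700_at probe set gave 0.38 ± 0.1499 (0.259) and 0.15 ± 0.1499 (0.729). The dimmer 1424272_at had a larger difference under genistein, 0.70 ± 0.246 (0.348), than under estradiol, 0.38 ± 0.246 (0.502), so the probe sets of Stat3 did not rank the treatments alike.

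Socs3 codes for the feedback inhibitor that is itself a Stat3 target. All 3 of its probe sets were tested, and those ending in _x_at can share sequence with other transcripts. The probe set 1455899_x_at gave 72.1 and 126.1 on the control arrays. It gave 89.1 and 74.0, 100.5 and 93.9, and 115.6 and 104.9 on days 2, 3 and 6 of estradiol, and 48.0 and 54.4, 79.4 and 84.9, and 94.1 and 61.1 on those days of genistein. On each of the 3 days both estradiol arrays lay above both genistein arrays of that day, and the same held for 1416576_at and 1456212_x_at, which measure the same gene and are not independent of it. Such a gap in that direction was seen in 15.4%, 22.8% and 24.9% of all tested probe sets on days 2, 3 and 6.

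Over the mean of days Socs3 was higher under estradiol than under genistein by 0.74 ± 0.215 on 1416576_at (limma adjusted p = 0.102), 0.40 ± 0.132 on 1455899_x_at (0.143) and 0.47 ± 0.142 on 1456212_x_at (0.109), and none passed the adjusted threshold. The differences from control ran from 0.00 to 0.16 under estradiol and from -0.60 to -0.32 under genistein, none called. The control arrays again lay far apart on all 3 probe sets, at 48.5 and 138.2 on 1416576_at. On 1455899_x_at the differences from control were -0.35 under estradiol and -0.75 under genistein without control replicate 1, and 0.34 and -0.06 without control replicate 2. Without control replicate 1, which leaves 1 control array, the day 2 difference of genistein from control was -1.08 on 1455899_x_at. On 1456212_x_at estradiol against genistein stayed at 0.47 over the mean of days. The brightest probe sets of Socs3 and Il6ra correlated at r = -0.88 over the 14 arrays, with both controls among the points.

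**Figure D4:**
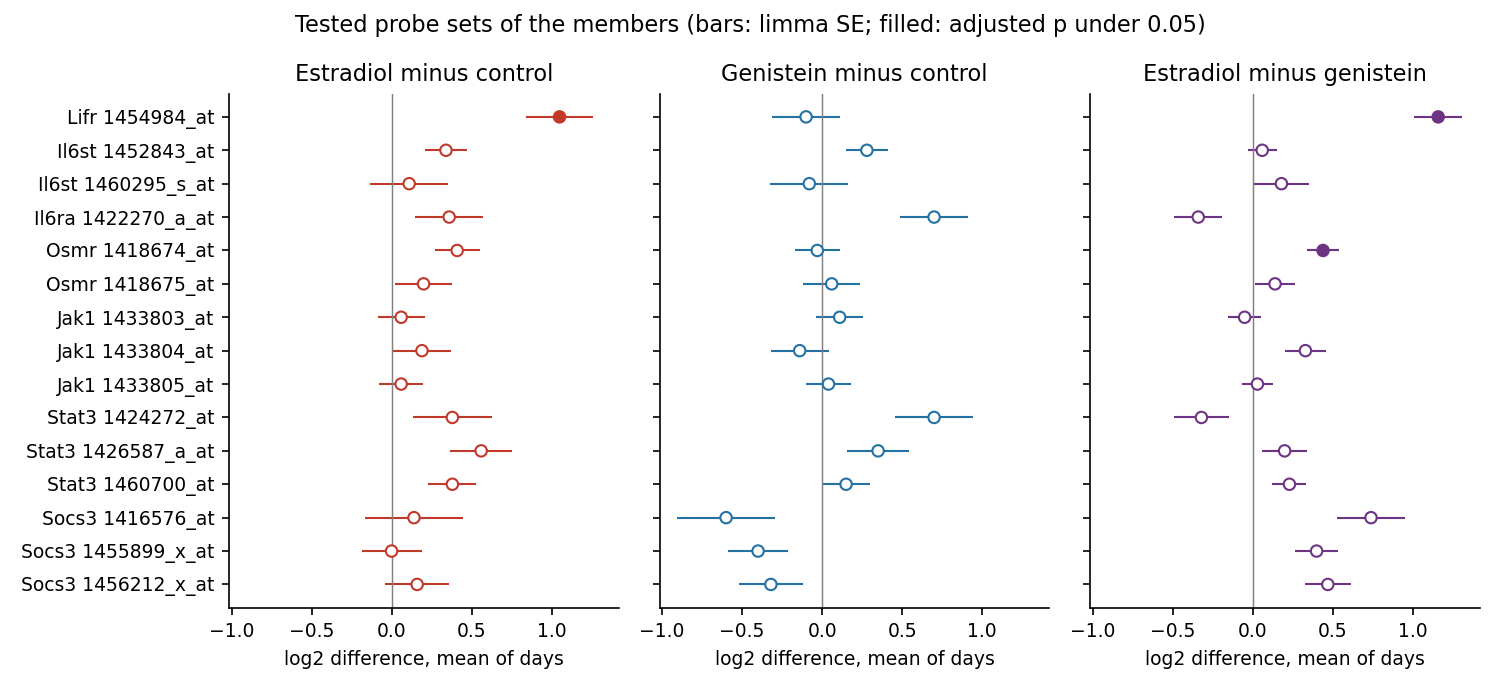
Log2 differences over the mean of days for the 15 tested probe sets of the members (x axis, log2 units; bars are limma SE; filled points have an adjusted p under 0.05). Lifr is filled at 1.05 for estradiol minus control and at 1.16 for estradiol minus genistein, Osmr 1418674_at at 0.44 for estradiol minus genistein, and no point is filled for genistein minus control.

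Counted over the 15 tested probe sets of the members, 1 was called higher in estradiol against control on day 6 and 1 for the mean of days (Lifr both times), where 0.611% and 0.53% of all tested probe sets were called higher. On days 2 and 3 limma called 0, against 0.0737% and 0.0589% of all. At an unadjusted p under 0.05, 4 were higher on day 2, 3 on day 3 and 5 on day 6, where 7.26%, 6.2% and 8.13% of all were.

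In genistein against control limma called 0 on day 2, day 3, day 6 and for the mean of days, where 0.0147%, 0.00737%, 0.00737% and 0.0368% of all were called in either direction. At an unadjusted p under 0.05, 3 members were higher and 2 lower on day 2, where 6.13% and 5.68% of all were. On day 3, 0 were, against 3.39% and 2.34%. On day 6, 2 were higher and 1 lower, against 5.66% and 4.77%, and for the mean of days 3 were higher and 1 lower, against 6.19% and 4.91%.

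In estradiol against genistein 1 was called higher on day 2, 0 on day 3, 1 on day 6 and 2 for the mean of days (Lifr, and Osmr in the last), against 0.081%, 0.0147%, 0.243% and 1.11% of all. At an unadjusted p under 0.05, 3 were higher and 0 lower on day 2, where 4.35% and 2.36% of all were. On day 3, 0 were, against 3.65% and 3.06%, and on day 6, 6 were higher and 1 lower, against 6.92% and 6.51%.

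The median difference of the 15 probe sets over the mean of days was 0.20 for estradiol against control, with 14 of 15 above 0. Over all tested probe sets the median was 0.00, with 50.9% above 0. It was 0.04 for genistein against control, with 8 of 15 above 0, beside 0.01 and 52.2%. It was 0.20 for estradiol against genistein, with 12 of 15 above 0, beside 0.00 and 49.6%. All 3 Stat3 probe sets and the brightest of Il6st and Il6ra were lowest on control replicate 2. Socs3 1416576_at and 1455899_x_at were highest on it. At an unadjusted p under 0.05, 5 were higher against control under estradiol, where 9.05% of all were, and 7 higher and 1 lower against genistein, where 9.31% and 7.8% of all were. These comparisons share the control or treated arrays, and probe sets of the same gene share RNA, so the counts are a description. The values as deposited, without the common scale, moved the median of all probe sets by 0.43 for estradiol against control and 0.42 for estradiol against genistein.

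The remaining genes of the pathway were followed through the brightest probe set of each, 64 genes listed and 46 tested. Of the ligands, Lif, Il6, Il11 and Ebi3 were too dim to be tested. The highest signal among the 14 arrays was 37.3 for Lif, 27.7 for Il6 and 29.5 for Il11, below the mean of 44.5 that the dimmest tested probe set had. Ctf1, which codes for cardiotrophin 1, and Clcf1, another gp130 ligand, were tested and not called. Among other receptors Il27ra, Il12rb2 and Lepr were tested, and Cntfr, Il31ra and Csf3r were too dim. In limma's tests 0 of the 46 genes were called in 11 of the 12 comparisons. Between estradiol and genistein, averaged over days, 2 were called higher and 0 lower, both from the 20 tested genes listed as Stat3 targets, where 1.11% of all tested probe sets were called higher. At an unadjusted p under 0.05, 9 of the 46 were higher and 2 lower, against 9.31% and 7.8% of all.

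Those genes were Cebpb and Lcn2. They are named because they were called between estradiol and genistein, so gaps between their arrays are no further support. Cebpb codes for a transcription factor of the acute-phase response. It gave 74.5 and 63.3 on the control arrays, 105.0 to 133.6 on the estradiol arrays and 64.9 to 99.5 on the genistein arrays. It was 1.39-fold higher under estradiol than under genistein (log2 0.48 ± 0.105, limma adjusted p = 0.0428). Lcn2 codes for an iron-carrier-binding acute-phase protein that neutrophils also carry. It gave 51.9 and 43.1 on the control arrays, 63.8 to 118.6 on the estradiol arrays and 27.9 to 53.9 on the genistein arrays. It was 1.55-fold higher (0.63 ± 0.129, limma adjusted p = 0.0318). With either control array left out both calls held, but the Cebpb call was lost in 10 and the Lcn2 call in 9 of the 12 fits that left out a treated array, at limma adjusted p up to 0.164 and 0.128. Both calls also ended with the deposited scale as a block (limma adjusted p = 0.186 for Cebpb and 0.214 for Lcn2), without the 3 arrays deposited at another scale (0.167 and 0.327), with the Gapdh ratio as a covariate (0.0797 and 0.0661) and with no filter on dim probe sets (0.0803 and 0.0697), and that of Cebpb with the replicate block (0.0564).

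The median difference over the 20 Stat3 targets was 0.02 for estradiol against genistein, with 11 of 20 above 0, beside a median of 0.00 over all tested probe sets. Against control no gene of the pathway was called. The largest differences under estradiol were 0.67 ± 0.148 for Cebpb (limma adjusted p = 0.0645), 0.65 ± 0.243 for the adaptor Gab1 (0.230), 0.59 ± 0.182 for Lcn2 (0.158) and -0.58 ± 0.218 for Ptpn6 (0.231), a phosphatase that dampens cytokine signals. Under genistein they were 0.76 ± 0.224 for the leptin receptor Lepr (limma adjusted p = 0.326), 0.72 ± 0.209 for the kinase Pim1 (0.325), 0.61 ± 0.243 for Gab1 (0.399) and 0.52 ± 0.169 for the inhibitor Socs5 (0.342). Lepr is a single-chain relative of gp130. All 4 of these genes, like Il6ra, were lowest on control replicate 2, at 27.2 for Lepr, 139.2 for Pim1, 21.2 for Gab1 and 82.9 for Socs5.

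The single-gene probe sets whose log2 values ran most like those of each member over the 14 arrays were found by Pearson's r, as a description in which the arrays share groups and scale. For Lifr they were Sirt2 (r = 0.906), a deacetylase gene, Postn (0.897), which codes for the matrix protein periostin, and Mettl7a1 (0.890). For Osmr they were Epsti1 (0.932), Anxa4 (0.915) and Igkv8-30 (0.910). For Il6st they were Fnbp4 (0.931), the interferon gamma receptor gene Ifngr2 (0.908) and 1700037H04Rik (0.904), and for Stat3 Rbm5 (0.943), Mau2 (0.939) and again Fnbp4 (0.930). Il6st and Stat3 themselves correlated at r = 0.86. For Il6ra they were Lepr (0.933), Ipo4 (0.904) and Atp6v0a2 (0.901). For Jak1 they were Ripor1 (0.887), Dag1 (0.879) and Trim8 (0.870), and for Socs3 Nmi (0.866), Wdr75 (0.854) and Parp12 (0.853).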

How the data were processed

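Signals of 14 arrays were used as the authors deposited them, in intensity units of MAS5 5.0 per the submitters' processing notes. Groups, days, doses and replicates were taken per the labels. Scanner files were not analysed here. Every array was rescaled to a 2%-trimmed mean of 150.04, which 11 arrays already had; no source used here gives the reason for the other scale of 3 arrays. From 22690 probe sets 64 controls were removed. Values became log2(signal + 16), and the dimmest 40% by their mean were dropped, leaving 13575 probe sets and 8214 genes. Symbols were taken from probe sets with 1 gene symbol (20393 in all), not from those with several (691) or none (1606).

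A model with 1 mean per group was fitted in R 4.3.3 with limma 3.58.1 (lmFit, eBayes with an intensity trend, 7 residual and 13.74 moderated degrees of freedom). P-values were adjusted by Benjamini-Hochberg over all tested probe sets in each of 12 comparisons and 3 F tests, and calls needed an adjusted p under 0.05. The procedure was tested on simulated data. Errors of differences are limma SE, and SD describe arrays within a group.

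The members and all lists were chosen with earlier results of these data known. All members were named. Pathway genes were named where called in any comparison, or among the 4 largest differences from control averaged over days under each treatment, and ligands and other receptors by whether they were tested. Likeness named the 3 highest r for each member. Markers named are those called over the mean of days in the epithelial, fibroblast, double-positive thymocyte and glucocorticoid-responsive lists. For adipocytes and endothelium they are all those with a probe set, by whether they were tested. Called macrophage and adipocyte markers are given by count only. Promoter windows came from RefSeq (GRCm38.p6), and neighbouring genes from the same assembly. Plots were made in python 3.11.15 using matplotlib 3.10.9.

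Replicate 1 deviations from the group means correlated between groups at -0.256 to 0.351 (median -0.0063, 21 pairs of groups). These values show no pairing by replicate number common to all groups, but cannot exclude a pairing shared by some of them. Alternatives were a pseudocount of 1 or 64, a filter on the lowest 60% or none, centring on medians or quantile normalization, and the deposited values without rescaling. Further ones were eBayes without a trend, the replicate number or the deposited scale as a block, the Gapdh ratio as a covariate and only the groups compared. The last were the 3 arrays at another scale left out, and each array left out in turn. Without those 3 arrays, estradiol day 3 was gone and estradiol day 2 kept 1 array. Means of days then took estradiol over days 2 and 6 and genistein over days 2, 3 and 6. The block for deposited scale rests on estradiol day 2, the only group with arrays at both scales.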

Additional observations from a re-analysis of the deposited data

How the results depend on the processing

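Averaged over days, Lifr in estradiol against genistein was called in 12 of 13 alternatives and in all 14 fits that left out 1 array (1.03 to 1.29), and was lost with the deposited scale as a block. Lifr against control was called in 7 of 13 and 6 of 14, and Osmr against genistein in 5 of 13 and 2 of 14. Each of these counts out of 13 includes a call in the values as deposited, which is no support. In those values 4294 of all tested probe sets were called for estradiol against control and 9251 against genistein over the mean of days. In numbers of member probe sets called (1 in estradiol against control on day 6 and over the mean of days, 1, 1 and 2 against genistein on days 2 and 6 and over the mean), the alternatives gave the following. Against control, day 6 and the mean fell to 0 with no filter, centring on medians, eBayes without a trend and without the 3 arrays at another scale, and the mean fell to 0 with the scale as a block. Against genistein, day 2 fell to 0 with no filter, the scale as a block, the Gapdh covariate, without the 3 arrays and with only the groups compared. Day 6 fell to 0 in the same fits and with a pseudocount of 1 and eBayes without a trend. The mean was 1 with a pseudocount of 1, no filter, quantile normalization, centring, the Gapdh covariate or without the 3 arrays, and 0 with the scale as a block. The values as deposited, in which all probe sets of estradiol day 3 shift up by a median of 1.01, gave 1, 15, 0 and 8 against control on days 2, 3 and 6 and over the mean, 15, 0 and 13 against genistein on days 3 and 6 and over the mean, 11 for the days of estradiol and 6 for the interaction. With the replicate block the counts were 0 and 0 against control on day 6 and over the mean and 0 and 1 against genistein on day 6 and over the mean.

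Leaving out 1 array in turn, the counts against control ran from 0 to 1 for estradiol on days 2 and 6 and over the mean, and for genistein from 0 to 2 on day 2, 0 to 1 on day 6 and 0 to 1 over the mean. Against genistein they ran from 0 to 1 on days 2 and 6 and from 1 to 3 over the mean. The genistein counts above 0 against control all came without control replicate 1, which leaves 1 control array. Calls over all probe sets also rose there. Leaving out 1 array also turned the sign of some members. Lifr in genistein against control ran from -0.23 to 0.02 (above 0 without genistein day 2 replicate 1 or day 3 replicate 2), Il6ra in estradiol against control from -0.06 (without control replicate 2) to 0.79, and Osmr in genistein against control from -0.25 to 0.19 (without control replicate 2). Jak1 ran from -0.03 (without control replicate 1) to 0.16 for estradiol against control, from -0.06 (without control replicate 1 or genistein day 6 replicate 2) to 0.13 for genistein against control, and from -0.07 (without genistein day 6 replicate 1) to 0.13 between the treatments. Between the treatments Jak1 also turned to -0.06 with the Gapdh covariate, and Il6ra to 0.06 in the values as deposited. The cause was not tested, except that no filter means more probe sets to adjust over, and fits without arrays have fewer samples. Dim signals limit what can be said of the ligands and of 4 member probe sets.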
